A study of Oryctolagus cuniculus with 24 samples.

Results

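Matrix metalloproteinases (MMPs) and their tissue inhibitors (TIMPs) were followed in rabbit peripheral blood mononuclear cells (PBMCs). The members were the probes named MMP1, MMP2, MMP3, MMP9, MMP12, MMP14, TIMP1, TIMP2 or TIMP3 by the gene name of the array, or by its RefSeq accession or gene number. Of the 9 genes, 8 had a probe, and these 8 genes held 21 of the 42089 probes and were 8 of the 28919 genes fitted. TIMP2 was not analysed here.

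The cells came from 4 New Zealand White rabbits (adult females, rabbits 1, 2, 4 and 5), and each animal gave 1 sample to each of 6 groups. The cells were mock-stimulated, stimulated with LPS (lipopolysaccharide of Gram-negative bacteria, 1 µg/mL), or stimulated with phorbol myristate acetate (PMA, 10 ng/mL) together with the calcium ionophore ionomycin (1 µg/mL). RNA was taken after 4 h (T4) and 24 h (T24) of culture, so a difference between T24 and T4 in mock-stimulated cells includes the time in culture. Each group therefore had 4 samples, every sample was hybridised to its own array, and the 24 arrays lay on 3 slides with all 6 groups on each.

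Levels are given as the log2 signal of a probe minus the median of its array, so that 0 is the median spot of the array and 1 unit is a doubling. Between 51.4% and 62.3% of the spots of an array were well above background by the scanner software's own flag. Of the 5 T cell markers measured, 4 passed this flag in all samples, CD2, CD5 and LCK among them, while CD28 passed it only after PMA-Ionomycin at T4. Of the 3 B cell markers, CD79B and MS4A1 passed in all samples, and CD22 in all but 3 of the 4 after PMA-Ionomycin at T4 and 1 of the 4 after LPS at T4. Of the 9 monocyte and macrophage markers, between 6 and 8 passed on all 4 arrays of a group, CD14 in every group, and VSIG4 and MPEG1 failed on all 4 arrays of at least 1 group. Of the 6 fibroblast markers, DCN, LUM and PDGFRB passed on no array and COL1A1 and COL3A1 on 1 each, while COL1A2, by most of its probes, passed on all 4 arrays after PMA-Ionomycin at each time and on no other. A gene was called differentially expressed (DE) where the Benjamini-Hochberg adjusted p of limma over all 28919 genes was under 0.05.

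MMPs are zinc-dependent proteases that cleave collagens, elastin, proteoglycans and other proteins of the extracellular matrix, as well as cytokines and cell surface receptors. Most are secreted as inactive proenzymes that lose a propeptide to become active, and TIMPs bind the active site and block it. In blood and inflamed tissue, monocytes, macrophages and neutrophils are known sources of several of them, and phorbol esters are classical inducers of MMP genes in cultured cells.

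The oligonucleotides that read these genes are shown first, since several results turn on which probe is read. Each probe is 60 bases long, and positions are counted along the transcript on which it was designed. The 3 probes of MMP3 lie end to end over 180 bases, from position 1308 to position 1487, and were placed by the files at chr1:113723191-113724344 of the oryCun2 assembly, on the plus strand. They are printed entirely in lower case because no base in them is marked.
MMP3 from position 1308: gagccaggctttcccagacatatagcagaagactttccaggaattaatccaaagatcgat
MMP3 from position 1368: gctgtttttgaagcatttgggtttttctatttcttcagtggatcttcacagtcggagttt
MMP3 from position 1428: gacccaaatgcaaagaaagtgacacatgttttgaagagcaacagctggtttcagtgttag

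MMP10 and MMP12 are close relatives of MMP3 on the same chromosome, and 1 probe of each lies over the same stretch of its own transcript as the last MMP3 probe. Capitals mark the bases that differ from the MMP3 probe, with which MMP10 shared 48 of 60 bases (80%) and MMP12 shared 37 of 60 (61.7%). The MMP12 probe lay at chr1:113701478-113701537 and the MMP10 probe at chr1:113786549-113786608, both on the plus strand.
MMP10: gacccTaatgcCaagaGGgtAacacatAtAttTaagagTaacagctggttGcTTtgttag
MMP12: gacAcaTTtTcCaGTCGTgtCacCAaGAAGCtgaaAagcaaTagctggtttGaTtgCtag

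The 3 probes of MMP1, at chr1:113751833-113751952 on the plus strand, overlap by 30 bases from one to the next, so that all 60 bases of the middle probe are also held by its neighbours. Capitals mark those bases.
MMP1 from position 906: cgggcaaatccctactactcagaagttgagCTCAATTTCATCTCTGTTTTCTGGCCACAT
MMP1 from position 936: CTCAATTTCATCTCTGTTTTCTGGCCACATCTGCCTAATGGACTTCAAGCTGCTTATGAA
MMP1 from position 966: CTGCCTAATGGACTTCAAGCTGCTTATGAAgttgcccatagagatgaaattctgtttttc

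The remaining members shown had 1 probe each, apart from MMP14, whose 5 probes were shifted by single bases at chr17:43085061-43085124 and had 56 bases in common, given in capitals. The TIMP1 probe lay at chrX:32658284-32658343 and the TIMP3 probe at chr4:88311903-88311962, the latter on the minus strand. For the MMP9 probe the position was not given in the sources used here.
MMP14 from position 1426: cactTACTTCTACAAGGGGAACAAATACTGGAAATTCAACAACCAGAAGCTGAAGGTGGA
MMP9: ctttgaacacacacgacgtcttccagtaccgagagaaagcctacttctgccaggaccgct
TIMP1: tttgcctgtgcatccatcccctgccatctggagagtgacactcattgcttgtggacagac
TIMP3: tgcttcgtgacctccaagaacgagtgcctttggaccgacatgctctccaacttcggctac

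Few members changed after LPS and more after PMA-Ionomycin, and the same held over all genes, whose shares are given below. LPS raised MMP3 at T24, by 6.16-fold as the average of 3 unlike probes. PMA-Ionomycin raised MMP1, MMP3 and TIMP3 at T4. For MMP1 and MMP3 only bounds can be given there, at least 1.78-fold and at least 10.3-fold with the probes that changed most. In both genes the probe well above background on every array was not called there (limma adjusted p = 0.634 and 0.566). The MMP1 call was lost when dim probes were left out. TIMP3 rose by 2.52-fold. At T24 PMA-Ionomycin raised MMP3 (4-fold, averaged over its probes), MMP12 (3.59-fold) and TIMP3 (2.28-fold), and it lowered the membrane-type protease MMP14 (3.66-fold). In mock-stimulated cells MMP9 (9.79-fold) and MMP12 (15.2-fold) were higher at T24 than at T4, and TIMP3 was lower (2.13-fold). There the lower group, T4 for MMP12 and T24 for TIMP3, was above background on 2 of 4 arrays.

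The counts are set beside the share of all genes called in the same comparison. After LPS, 0 of the 8 members were called by limma at T4, with 1 at an unadjusted p under 0.05 (MMP1), where 1.02% of all genes were called (0.0553% higher, 0.968% lower). At T24 MMP3 alone was called, where 1.22% of genes were (0.643% higher, 0.581% lower). After PMA-Ionomycin, 3 of 8 were called at T4, all higher, where 22.8% of genes were (13.4% higher, 9.35% lower). At T24, 3 were higher and 1 was lower, where 33.6% of genes were called (22.1% higher, 11.5% lower). The median log2 difference of the members at T4 was 0.44 after PMA-Ionomycin, beside 0.046 over all genes, and at T24 it was 0.08, beside 0.03.

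Between both stimulations, PMA-Ionomycin gave higher levels than LPS for MMP3 and TIMP3 at T4, where 26.7% of genes were called (17.7% higher, 9.04% lower). At T24 it gave a higher level for TIMP3 and lower levels for MMP9 and MMP14, where 36.1% of genes were called (23.6% higher, 12.5% lower). In mock-stimulated cells 2 members were higher and 1 was lower at T24 than at T4, where 12.6% of genes were called (7.42% higher, 5.14% lower). The effect of LPS differed between T4 and T24 for MMP3, in the direction of a higher value at T24 (1.95% of genes called, 1.71% higher and 0.239% lower). That of PMA-Ionomycin differed for MMP14, in the other direction (22.5% of genes called, 14.4% higher and 8.16% lower). Comparisons at 1 time share their mock-stimulated samples and are not independent of each other, and MMP2 and TIMP1 were called in none.

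**Figure D1:**
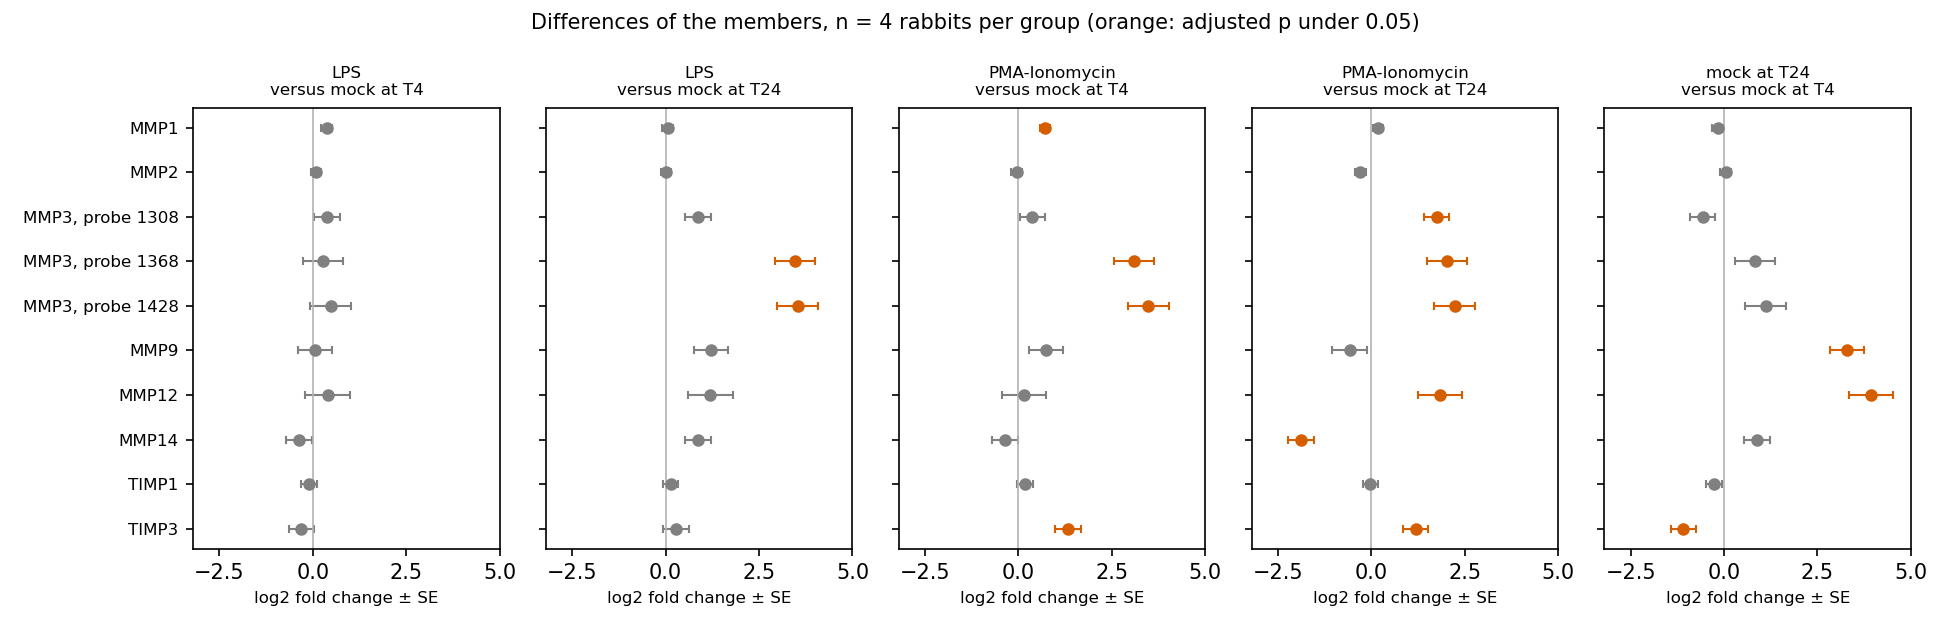
Differences of the members in log2 units (horizontal axis, points with bars of 1 SE, 4 rabbits per group) in 5 comparisons, with MMP3 shown by its 3 probes. Orange points have an adjusted p under 0.05; after LPS the called points are the MMP3 probes from positions 1368 and 1428 at T24, and the TIMP1 point stays near 0 in all 5 panels.

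MMP1, the interstitial collagenase, was low on these arrays and rose after PMA-Ionomycin at T4. Averaged over its probes the difference from mock-stimulated cells was 0.71 log2 units (SE 0.14), with an adjusted p of 0.000489 by limma, and it was positive in 4 of 4 rabbits. After LPS at T4 it was 0.37 (SE 0.14, limma adjusted p = 0.215).

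The average of MMP1 hides a disagreement between its probes. The probe from position 966 stood at -0.80, -1.32, -0.76 and -1 in mock-stimulated cells at T4 and at 0.31, -0.09, 0.38 and -0.64 after PMA-Ionomycin, in rabbits 1, 2, 4 and 5. The groups did not overlap, but 3 of the 4 arrays after PMA-Ionomycin and none of the mock-stimulated arrays were well above background, so that only a bound can be given, at least 1.78-fold (limma adjusted p over all probes, 0.00109). The probe from position 906 gave at least 1.56-fold (adjusted p = 0.00394 by limma), from levels of -0.93, -1.25, -0.86 and -1.10 in mock-stimulated cells and -0.11, -0.17, 0.14 and -0.75 after PMA-Ionomycin, 2 of these above background.

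The middle probe of MMP1, from position 936, was well above background on all 24 arrays, between 0.32 and 2.79. It stood at 0.82, 1.67, 0.80 and 0.72 in mock-stimulated cells at T4 and at 1.59, 0.84, 1.44 and 1.55 after PMA-Ionomycin, and these ranges overlapped. Its difference of 0.35 (SE 0.37) was not called (limma adjusted p = 0.634). Across the 24 arrays the outer probes went together, with a Pearson correlation of 0.832, while the middle probe, which has no base of its own, correlated with them at 0.0168 and 0.0378. These correlations describe the probes, which share the arrays. The rise of MMP1 therefore rests on the 2 dim outer probes, and with dim probes left out it was no longer called (0.35, limma adjusted p = 0.498).

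**Figure D2:**
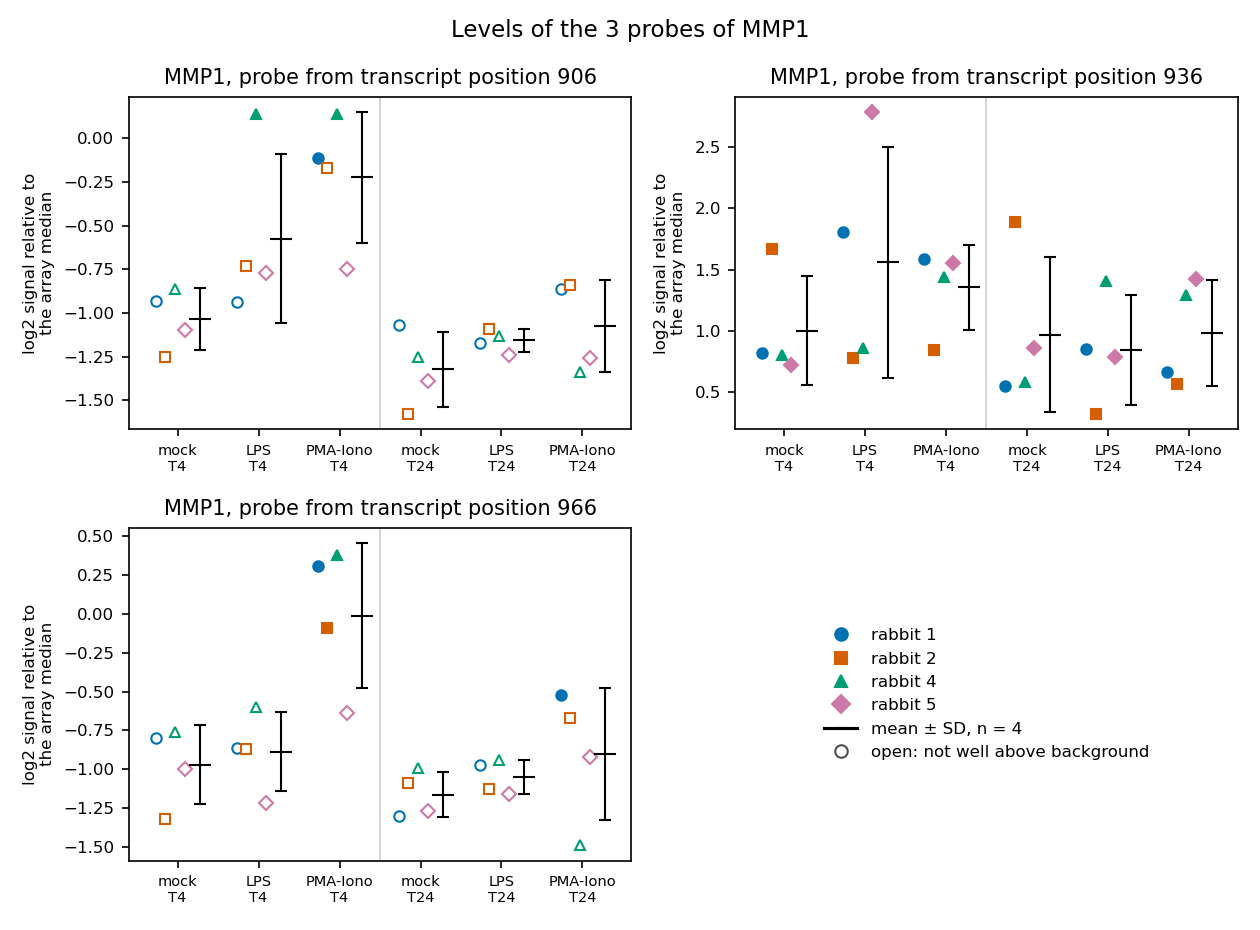
Log2 level of each MMP1 probe relative to the array median (vertical axis), by group, with 1 symbol per rabbit and the mean with 1 SD; open symbols are not well above background. After PMA-Ionomycin at T4 the outer probes lie above mock-stimulated cells in every rabbit, and the probe from position 936 does not separate the groups.

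The gelatinases MMP2 and MMP9 degrade denatured collagen and basement membrane collagen. MMP2 stayed close to background. Of its 6 probes, at chr5:11742596-11743209, 5 overlapping ones were almost never above background, and only the probe from position 2450 was detected, on 4 of 4 arrays after LPS at T24 and on 3 of 4 in mock-stimulated cells at T24. That probe stood at -0.18, -0.36, -0.41 and -0.82 in mock-stimulated cells at T24, at -0.05, -0.22, -0.53 and -0.65 after LPS, and at -0.95, -0.76, -0.86 and -1.46 after PMA-Ionomycin. Of its 3 samples at T24, every rabbit was lowest after PMA-Ionomycin. The probe was at least 1.41-fold lower there than in mock-stimulated cells (adjusted p = 0.0354 by limma over all probes) and at least 1.49-fold lower than after LPS (0.0149). The same oligonucleotide, spotted 3 more times under an identifier without a symbol, was above background on 2 of 4 arrays in mock-stimulated cells at T24, on 3 of 4 after LPS and on none after PMA-Ionomycin. It was called lower there in both comparisons (limma adjusted p = 0.00674 and 0.00114), with no size given because the lower group was at background. Averaged over the 6 probes MMP2 was not called (-0.29, SE 0.14, limma adjusted p = 0.137).

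MMP9, the gelatinase of neutrophils and macrophages, had a strong signal in every sample and followed time in culture. In mock-stimulated cells it stood at 8.18, 8.10, 7.39 and 7.61 at T4 and at 12.30, 11.92, 11.42 and 8.81 at T24. Rabbit 5 rose least, but the groups did not overlap. The difference was 3.29 log2 units (SE 0.46), 9.79-fold, higher in 4 of 4 rabbits by 1.20 to 4.12, with an adjusted p of 2.07e-05 by limma. Without rabbit 5 the difference was 3.99 (limma adjusted p = 5.43e-08).

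After LPS MMP9 stood at 8.25, 8.01, 7.85 and 7.38 at T4, overlapping mock-stimulated cells. At T24 it stood at 12.33, 12.22, 12.55 and 12.17, the narrowest of the 6 groups (12.32 ± 0.17, SD, n = 4). The difference from mock-stimulated cells at T24, 1.21 (SE 0.46), was not called (limma adjusted p = 0.282). It was positive in 4 of 4 rabbits, but ran from 0.036 in rabbit 1 to 3.36 in rabbit 5, whose mock-stimulated sample was low, and without rabbit 5 the difference was 0.49.

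After PMA-Ionomycin MMP9 stood at 8.16, 8.35, 9.16 and 8.57 at T4, 0.74 above mock-stimulated cells (SE 0.46, limma adjusted p = 0.327). At T24 its levels were 10.87, 10.04, 10.75 and 10.46, below every sample stimulated with LPS. Here 3 rabbits were below their mock-stimulated sample and rabbit 5 was above it, so that the mean difference from mock-stimulated cells was -0.58 (SE 0.46, limma adjusted p = 0.418). Without rabbit 5 it was -1.33 and was called (limma adjusted p = 0.0013). Against LPS at T24 the level was lower in 4 of 4 rabbits, by 3.45-fold (-1.79, SE 0.46, limma adjusted p = 0.00317). The change of the PMA-Ionomycin effect between T4 and T24 was -1.32 (SE 0.65, adjusted p = 0.176 by limma), and without rabbit 5 it was -1.99 with an adjusted p of 0.00127.

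Markers of monocytes and macrophages moved with time and with PMA-Ionomycin too. Of the 9 markers measured among 12 listed, 5 were called higher and 0 lower in mock-stimulated cells at T24 than at T4 (7.42% of all genes higher, 5.14% lower). At T24, 1 was called higher and 5 lower after PMA-Ionomycin (22.1% of all genes higher, 11.5% lower). Their mean level ran from 1.48 to 2.61 in mock-stimulated cells at T4 and from 2.53 to 3.57 at T24, with rabbit 5 lowest, and from 2.35 to 3.78 after LPS and 1.35 to 1.69 after PMA-Ionomycin at T24. At T4 it ran from 1.11 to 1.75 after LPS and from 1.41 to 1.98 after PMA-Ionomycin. VSIG4, a receptor of tissue macrophages, was above background on no array at T4. CD14, the LPS co-receptor, was lowered by 3.27 log2 units after PMA-Ionomycin at T24 (limma adjusted p = 3.21e-08). The study itself lists CD14 as not DE after PMA-Ionomycin at either time, by its array and by quantitative PCR. MSR1 went the other way at T24, with a mean level of 1.32 in mock-stimulated cells and 2.56 after PMA-Ionomycin. The 5 neutrophil markers measured among 8 listed had mean levels of 1.92 to 2.38 in mock-stimulated cells at T4, and 2.59 to 3.11 at T24. After LPS these were 1.68 to 2.22 at T4 and 2.23 to 2.86 at T24, and after PMA-Ionomycin 0.96 to 1.66 at T4 and -0.039 to 0.58 at T24. Of the 5, 2 were called higher with time in mock-stimulated cells and 3 lower after PMA-Ionomycin at T24, beside the same 7.42% and 11.5% of all genes, and among them the neutrophil collagenase MMP8 was above background on no array. Fewer cells of a type and less RNA per cell cannot be told apart in such bulk samples, and the part of these markers in the results on MMP9, MMP12 and MMP14 was not tested.

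MMP3, stromelysin 1, degrades proteoglycans and basement membrane and activates other proenzymes of the family. It was the member called after both stimulations, and its rise from background at T4 was seen with the probes from positions 1368 and 1428. The probe from position 1428 stood at -0.43, -0.97, -0.96 and -1.02 in mock-stimulated cells at T4, on no array above background, and at 3.76, 2.80, 2.52 and 1.43 after PMA-Ionomycin. After LPS at T4 it stood at -0.49, -0.83, -0.36 and 0.23. PMA-Ionomycin thus raised it in every rabbit within 4 h. Between the group means the rise was at least 10.3-fold (limma adjusted p = 4.06e-05), while after LPS 1 of 4 arrays was above background.

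At T24 the same MMP3 probe stood at 1.31, 1.13, -0.45 and -0.94 in mock-stimulated cells, at 4.66, 3.26, 2.58 and 4.70 after LPS and at 3.87, 2.43, 1.54 and 2.15 after PMA-Ionomycin. Both stimulated groups lay above all 4 mock-stimulated samples. In mock-stimulated cells 3 of the 4 arrays were above background. The difference was 3.54 (SE 0.55), 11.6-fold, for LPS, with an adjusted p of 0.000578 by limma, and 2.23 (0.00237) for PMA-Ionomycin. The effect of LPS was larger at T24 than at T4 by 3.06 (SE 0.78, limma adjusted p = 0.039). At T4 the probe was above background on none of the mock-stimulated arrays and on 1 of 4 after LPS, so that the size of this change has no exact value.

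The adjacent MMP3 probe, from position 1368, went the same way, with a correlation of 0.989 to the last probe over the 24 arrays. After PMA-Ionomycin at T4 it was at least 7.66-fold above mock-stimulated cells (limma adjusted p = 9.77e-05) and at least 6.66-fold above LPS (0.000228). After LPS at T24 it was about 11-fold above mock-stimulated cells (3.46, SE 0.53, limma adjusted p = 0.000468), in which it was above background on 2 of 4 arrays. At T24 it was lower after PMA-Ionomycin than after LPS, by 1.44 log2 units (limma adjusted p = 0.0355).

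The MMP3 probe from position 1308 did not follow. It was well above background on all 24 arrays, also where the other 2 probes were at background, at 3.55, 4.84, 4.71 and 4.02 in mock-stimulated cells at T4, and its correlation with them was 0.317 and 0.281. After PMA-Ionomycin at T4 it stood at 5.11, 4.71, 4.73 and 4.03 and after LPS at T24 at 4.41, 4.21, 4.87 and 4.82, with neither difference called (0.37 and 0.87, limma adjusted p = 0.566 and 0.269). After PMA-Ionomycin at T24 it stood at 4.70, 5.47, 6.24 and 5.43, above the 3.24, 4.36, 3.98 and 3.24 of mock-stimulated cells, and was called (1.75, limma adjusted p = 0.000181). Here PMA-Ionomycin exceeded LPS, by 0.88 (0.0429), which is the opposite direction to that of its neighbour. The order of both stimulations for MMP3 at T24 therefore depends on the probe, and the averaged gene gave no call (-0.62, limma adjusted p = 0.227).

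Averaged over its 3 probes, MMP3 differed from mock-stimulated cells by 0.38 (SE 0.37, limma adjusted p = 0.683) after LPS at T4 and by 2.62 (0.000256) at T24. After PMA-Ionomycin it differed by 2.31 (4.43e-05) at T4 and 2 (0.000124) at T24. The T4 values average 2 probes that were at background in mock-stimulated cells with 1 that was not, and are no measure of the fold change. The larger LPS effect at T24, 2.25 (SE 0.52, limma adjusted p = 0.0284), lost its call with any 1 rabbit left out, where it lay between 1.81 and 2.57. With only the arrays compared in the fit, the LPS difference at T24 kept its size and had an adjusted p of 0.056.

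**Figure D3:**
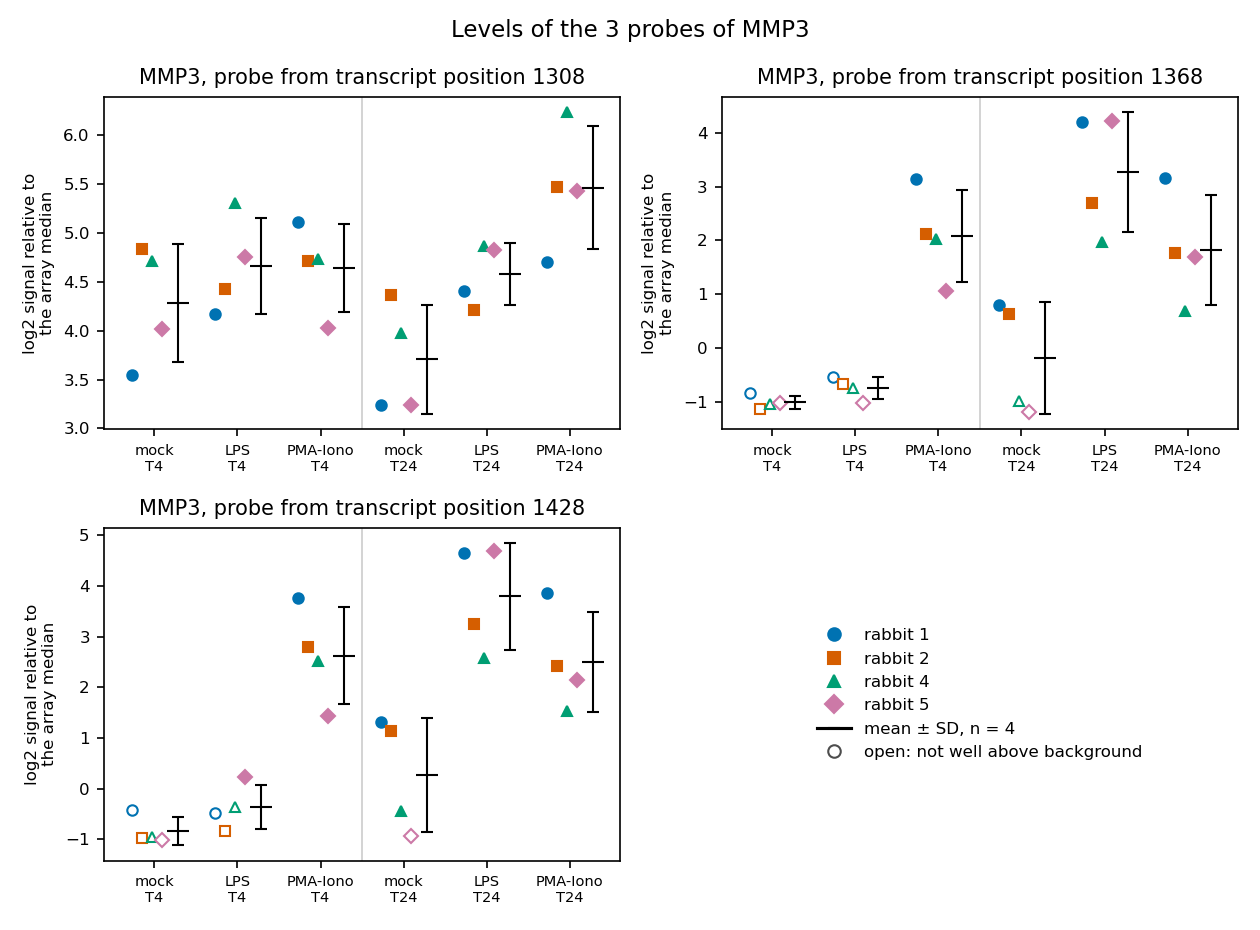
Log2 level of each MMP3 probe relative to the array median (vertical axis), by group, with 1 symbol per rabbit and the mean with 1 SD; open symbols are not well above background. The probes from positions 1368 and 1428 rise from background after PMA-Ionomycin at T4. At T24 they stand above the mock-stimulated sample of the same rabbit after both stimulations. The probe from position 1308 is at 3.24 or more in every sample.

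MMP12, the macrophage elastase, went from the edge of detection to a clear signal with time in culture. In mock-stimulated cells it stood at 1.41, 0.48, -0.65 and -1.14 at T4, with 2 of 4 arrays above background, and at 4.76, 4.75, 2.53 and 3.78 at T24. All 4 samples at T24 lay above all at T4, by 3.17 to 4.92 within a rabbit. The difference was 3.93 (SE 0.60), 15.2-fold, with an adjusted p of 5.41e-05 by limma.

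The T4 levels of MMP12 after LPS (0.80, 1.5, -0.03 and -0.57) and after PMA-Ionomycin (0.44, 1.12, -0.60 and -0.26) overlapped those of mock-stimulated cells. The T24 levels were 5.15, 5.21, 4.11 and 6.11 after LPS and 6.04, 6.84, 4.84 and 5.47 after PMA-Ionomycin. Each rabbit was above its own mock-stimulated sample with either stimulation. The rise after PMA-Ionomycin was called (1.84, SE 0.60, 3.59-fold, limma adjusted p = 0.0181), that after LPS was not (1.19, SE 0.60, limma adjusted p = 0.492), and the difference between both stimulations was 0.66 (limma adjusted p = 0.485). The call after PMA-Ionomycin was lost without rabbit 2 (1.76, limma adjusted p = 0.0577) and with 3 of the other scalings, the weakest of which gave 1.26.

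MMP14, a membrane-anchored protease that activates the MMP2 proenzyme at the cell surface, was the member lowered by PMA-Ionomycin. Its 5 probes correlated at 0.989 to 0.997 and were averaged. In mock-stimulated cells it stood at 2.20, 2.74, 2.20 and 1.37 at T4 and at 3.70, 3.39, 3.06 and 1.87 at T24, higher in 4 of 4 rabbits (0.88, SE 0.35, limma adjusted p = 0.124). With rabbit as a block this time difference was called (adjusted p = 0.0194 by limma), as it was without rabbit 5 (1, limma adjusted p = 0.0149).

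After PMA-Ionomycin MMP14 stood at 1.46, 1.66, 2.56 and 1.39 at T4, overlapping mock-stimulated cells, and at 1.45, 0.95, 1.09 and 1.04 at T24, below all mock-stimulated samples of that time. The difference at T24 was -1.87 (limma adjusted p = 0.00016), 3.66-fold lower and lower in 4 of 4 rabbits, and all 5 probes were called. The change of this effect from T4 to T24 was -1.51 (SE 0.50, limma adjusted p = 0.0312), and the call was lost without rabbit 1, 2 or 4.

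After LPS MMP14 stood at 2.08, 2.31, 1.51 and 1.15 at T4 and at 4.14, 4.07, 4.12 and 3.17 at T24. Every rabbit was below its mock-stimulated sample at T4 (-0.36, limma adjusted p = 0.681) and above it at T24 (0.87, limma adjusted p = 0.332), and neither difference was called. The change between times was 1.23 (SE 0.50, limma adjusted p = 0.211), and 1.23 with an adjusted p of 0.0461 with rabbit as a block. Of the MMP14 differences tested, the largest was that of PMA-Ionomycin from LPS at T24, -2.74 (limma adjusted p = 9.71e-07), 6.68-fold.

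The inhibitor TIMP1, a secreted glycoprotein that blocks most soluble MMPs, differed little between groups. It stood at 2.57, 3.30, 2.58 and 2.12 in mock-stimulated cells at T4, at 2.81, 2.64, 2.64 and 2.03 after LPS and at 2.54, 2.76, 3.14 and 2.80 after PMA-Ionomycin. The T24 levels were 2.42, 2.65, 2.17 and 2.24, then 2.78, 2.83, 2.28 and 2.09, and then 2.41, 2.30, 2.25 and 2.43 in the same order of groups. At each time the 3 groups overlapped, and the samples stimulated with PMA-Ionomycin were all lower at T24 than at T4. Its differences from mock-stimulated cells lay between -0.11 and 0.17 log2 units, and the smallest adjusted p of TIMP1 over all comparisons was 0.408 by limma, for PMA-Ionomycin against LPS at T4. The 95% intervals of its differences from mock-stimulated cells ran from -0.55 at the lowest to 0.61 at the highest, so that a smaller change cannot be told from none.

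TIMP3, the inhibitor that stays bound to the matrix and also blocks ADAM proteases, rose after PMA-Ionomycin at both times. It stood at -0.20, 0.53, 0.49 and 1.75 in mock-stimulated cells at T4 and at 1.69, 1.33, 2.93 and 1.95 after PMA-Ionomycin, where rabbit 5 gained least (0.21) and its mock-stimulated sample lay within the range of the stimulated ones. At T24 it stood at -0.47, -0.81, -0.27 and -0.24 in mock-stimulated cells, with 2 of 4 arrays above background, and at 0.91, 0.30, 1.22 and 0.55 after PMA-Ionomycin, with no overlap. The differences were 1.33 (SE 0.34, 2.52-fold, limma adjusted p = 0.00446) and 1.19 (2.28-fold, limma adjusted p = 0.00707), higher in 4 of 4 rabbits at both times. The call at T4 was lost without rabbit 4 (0.96, limma adjusted p = 0.104).

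After LPS TIMP3 stood at -0.11, 0.22, 0.31 and 0.93 at T4 and at -0.34, -0.31, -0.24 and 0.22 at T24, and neither difference from mock-stimulated cells was called (-0.31 and 0.28). PMA-Ionomycin exceeded LPS by 3.11-fold at T4 (limma adjusted p = 0.000571) and by 1.88-fold at T24 (limma adjusted p = 0.036). In mock-stimulated cells TIMP3 fell by 1.09 between T4 and T24 (SE 0.34, limma adjusted p = 0.0325), in 4 of 4 rabbits and by between 0.27 and 1.98. The platelet markers fell over the same time: of 4 measured among 7 listed, 3 were called lower, where 5.14% of all genes were, their mean level going from between 3.01 and 3.37 to between 0.61 and 1.15, and their part in the result on TIMP3 was not tested. The call on TIMP3 between both stimulations at T24 was lost in 7 of 14 alternatives, among them those without rabbit 1, 2 or 4 (0.73 to 1.01), and that between both times in 5 of 14, among them those without rabbit 2, 4 or 5 (-1.20 to -0.79).

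**Figure D4:**
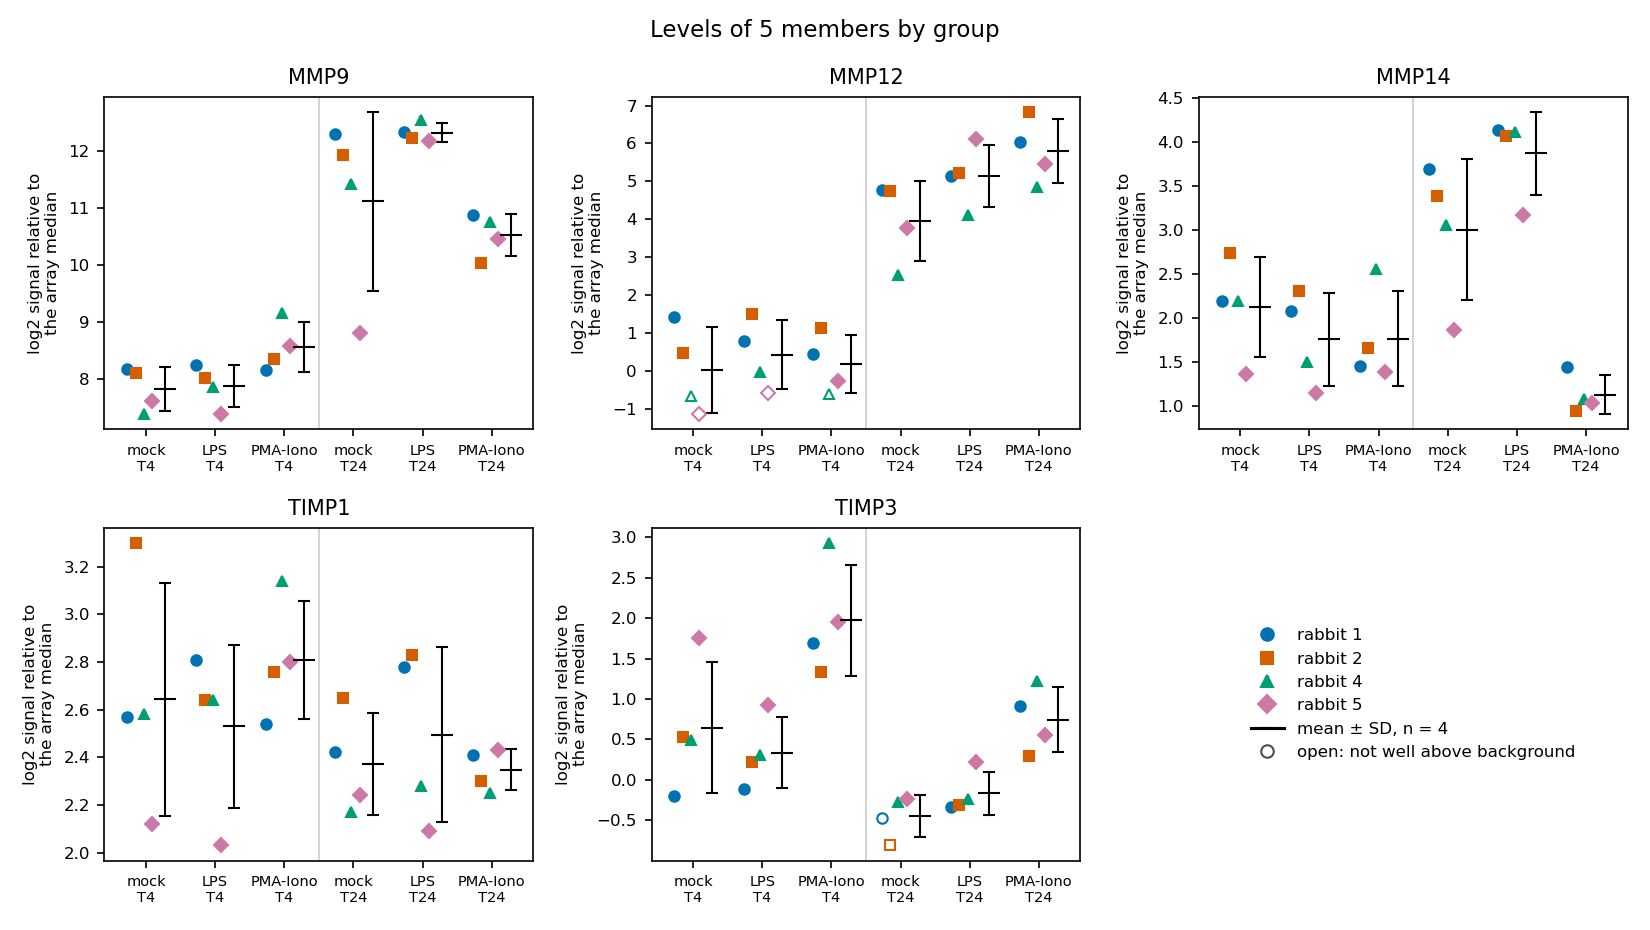
Log2 level relative to the array median (vertical axis, 1 scale per gene) of MMP9, MMP12, MMP14, TIMP1 and TIMP3 by group, with 1 symbol per rabbit and the mean with 1 SD; open symbols are not well above background. MMP9 and MMP12 are higher in all samples at T24 than in the mock-stimulated samples at T4, the MMP14 mean is lowest after PMA-Ionomycin at T24, TIMP1 overlaps between the groups of each time, and TIMP3 is raised by PMA-Ionomycin at both times.

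Other genes of the family and of its pathway were read from lists. Of 18 other MMP and TIMP genes, 15 were measured. None was called after LPS at either time by limma, with 1 at an unadjusted p under 0.05 at each time. After PMA-Ionomycin 3 were higher and 0 lower at T4, and 1 was higher and 2 lower at T24, where 13.4% and 9.35% of all genes were called higher and lower at T4, and 22.1% and 11.5% at T24. These counts were not tested against those shares. In mock-stimulated cells 1 was higher at T24 than at T4, MMP19 (7.42% of all genes).

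MMP10, stromelysin 2, had the largest difference of these at T4. It stood at -0.37, -1.10, -0.99 and -1.03 in mock-stimulated cells and at 6.28, 6.2, 5.59 and 5.75 after PMA-Ionomycin, a difference of 6.83 (SE 0.22, limma adjusted p = 5.39e-16) from a group in which 1 of 4 arrays was above background. At T24 it stood at 2.30, 1.98, 1.68 and 2.28 after PMA-Ionomycin, 3.23 above mock-stimulated cells (limma adjusted p = 6e-11), where some probe of MMP10 was above background on 1 of 4 arrays. Both differences thus start from levels near background, and their sizes are not exact. After LPS at T24 MMP10 stayed between -1.13 and -0.68, a difference of 0.27 from mock-stimulated cells (SE 0.22, limma adjusted p = 0.787), where the MMP3 probes with 80% and 83.3% of bases in common with it were raised. After PMA-Ionomycin both genes were raised together. The MMP10 probes aligned with the MMP3 probes from positions 1428 and 1368 were called higher at both times (largest limma adjusted p over all probes, 3.71e-11). No size is given for them, since each was above background on 1 of 4 mock-stimulated arrays at T4 and on none at T24, and on all 4 after PMA-Ionomycin at each time. The part of such shared bases in the MMP3 values after PMA-Ionomycin was not tested.

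MMP7, matrilysin, was at background in mock-stimulated cells at T4 and was at least 4.40-fold higher after PMA-Ionomycin (limma adjusted p = 0.000407). MMP19 stood at 0.51, 0.70, 1.02 and -0.33 in mock-stimulated cells at T4 and at 2.28, 2.16, 3.15 and 2.49 after PMA-Ionomycin, and was raised by 2.04 (limma adjusted p = 3.73e-05). At T24 it stood at 3, 2.45, 1.25 and 1.2 and at 0.64, 0.41, 0.55 and 0.74, and was lowered by PMA-Ionomycin (-1.39, limma adjusted p = 0.00131). The PMA-Ionomycin effect on MMP19 thus changed sign between the times, by -3.44 (limma adjusted p = 4.75e-06). The LPS effect on MMP19 also changed with time, by 2.06 (SE 0.46, limma adjusted p = 0.0239), from -1.03 at T4, where 1 of 4 arrays after LPS was above background, to 1.02 at T24, neither of which was called (limma adjusted p = 0.116 and 0.151). Of the 15 genes, MMP19 was the 1 called for the change of the LPS effect (1.95% of all genes called), and MMP10 and MMP19 were the 2 called for that of PMA-Ionomycin (22.5%).

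**Figure D5:**
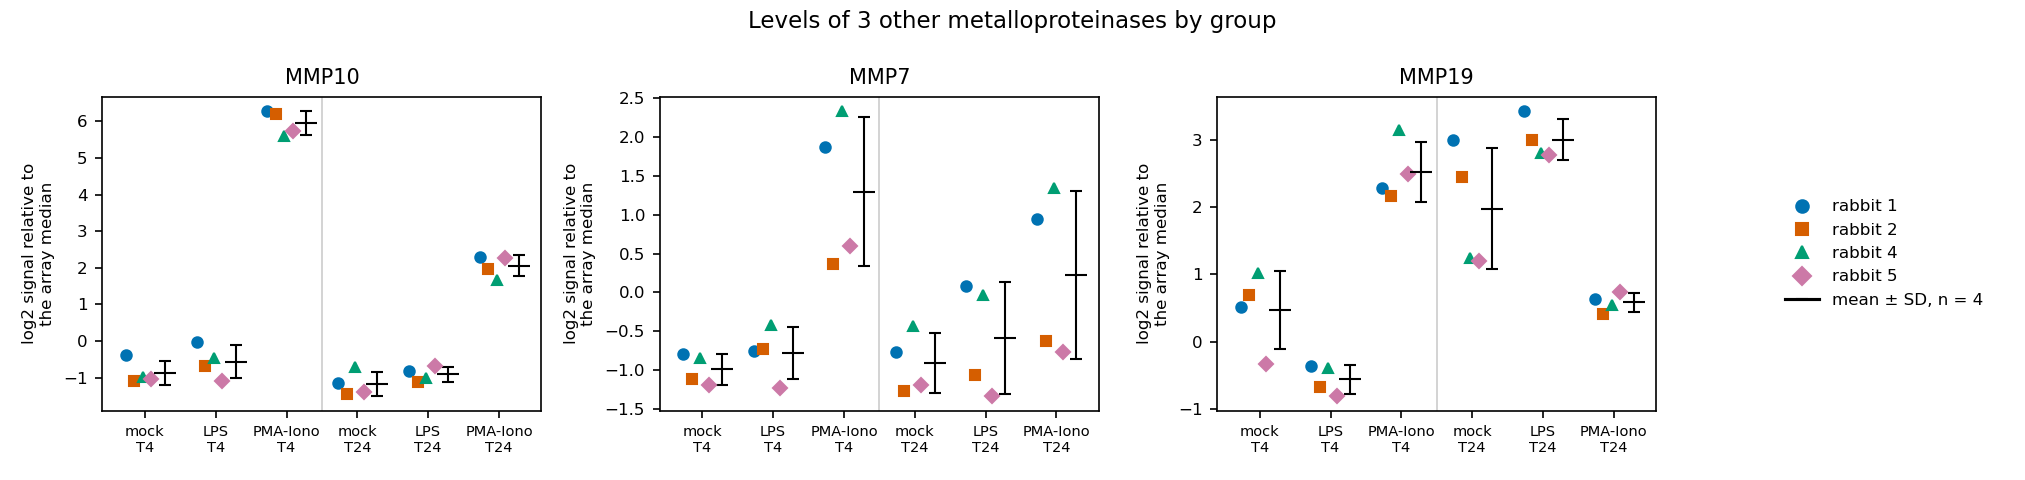
Log2 level relative to the array median (vertical axis, 1 scale per gene) of MMP10, MMP7 and MMP19 by group, with 1 symbol per rabbit and the mean with 1 SD. MMP10 stands near 6 in all rabbits after PMA-Ionomycin at T4 and near 2 at T24, against values of -0.026 or less without PMA-Ionomycin.

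Of 15 ADAM and ADAMTS proteases listed, which shed cell surface proteins or cleave proteoglycans, 9 were measured. After PMA-Ionomycin 2 were lower at T4, ADAM15 and ADAM10 (-0.56 and -0.43), and 4 were lower at T24, with ADAM9 at -2.15 (limma adjusted p = 6.65e-05) and ADAM15 at -1.44. None was higher, and ADAM9, ADAM10 and ADAM15 were higher at T24 than at T4 in mock-stimulated cells (1.52, 0.79 and 0.71). Over all genes, 13.4% were higher and 9.35% lower after PMA-Ionomycin at T4, 22.1% higher and 11.5% lower at T24, and 7.42% higher with time.

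Among 12 measured of 16 genes for the activation, inhibition, docking and clearance of MMPs, LPS at T24 raised 2, the plasminogen activator inhibitor SERPINB2 (4.12, limma adjusted p = 5.55e-06) and LCN2 (2.96, limma adjusted p = 0.00589), the lipocalin that binds MMP9. PMA-Ionomycin at T4 raised 3 and lowered 3, among them the plasminogen activator PLAU (3.91) and SERPINB2 (-3.27). At T24 it raised 2 and lowered 5, with the cathepsins CTSK and CTSB at -2.99 and -2.78. In mock-stimulated cells 4 were higher and 1 was lower at T24, with CTSB at 4.22 and SERPINB2 at -4.80. The shares of all genes called were 1.22% for LPS at T24, 22.8% and 33.6% for PMA-Ionomycin at T4 and T24, and 12.6% with time.

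Among 12 measured of 15 matrix genes, the collagen chain COL1A2 was raised by PMA-Ionomycin at both times (1.81 and 2.92 as averages over its 11 probes, most of which were not above background in mock-stimulated cells), osteopontin (SPP1) was raised at T24 (2.74) and thrombospondin 1 (THBS1) was lowered (-1.92). In all, 2 were higher and 0 lower at T4, and 3 were higher and 4 lower at T24. Over all genes 13.4% were higher and 9.35% lower at T4, and 22.1% higher and 11.5% lower at T24. After LPS 1 was lower at T24, fibrillin 1 (FBN1), by at least 2.38-fold (limma adjusted p = 0.00266), where 0.581% of all genes were lower. In mock-stimulated cells 3 were higher and 1 was lower at T24, where 7.42% of all genes were higher and 5.14% lower. Of the 6 fibroblast markers measured among 7 listed, COL1A2 was the one called after PMA-Ionomycin.

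Of 13 transcription factors known at MMP promoters, 5 were measured. PMA-Ionomycin raised 3 at T4, the AP-1 genes FOSL1 (1.63), JUN (1.62) and FOSL2 (1.26), where 13.4% of all genes were higher. At T24 it raised 1 and lowered 2, ETS1 (-2.06) and JUN (-1.14), where 22.1% of all genes were higher and 11.5% lower. LPS gave no call among the 5 by limma, with 0 at an unadjusted p under 0.05 at T4 and 1 at T24, where 1.02% and 1.22% of all genes were called.

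The genes whose levels followed a called member most closely over the 24 arrays were taken from about 6048 named genes that were detected in a group. For MMP14 they were GAS7, EXT1 and ZSCAN20 (Pearson correlations 0.949, 0.932 and 0.932), and for MMP12 they were TCEAL8, PIGX and MAGED1 (0.91, 0.904 and 0.901). For TIMP3 they were LZTFL1, ENPP1 and CTPS1 (0.896, 0.886 and 0.88). For MMP1 they included NT5C3A and RGS20 (0.867 and 0.857), and for MMP3, averaged over its discordant probes, CDK16, DESI1 and FNDC3A (0.836, 0.825 and 0.807). The points share rabbits, groups and slides, and the correlations are descriptions.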

How the data were processed

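The sources were 24 scanner files of a custom single-colour Agilent array, 1 per sample. Per the labels and the study's methods the authors labelled the RNA with Cy3, scanned the slides and read the images with Agilent Feature Extraction 10.7.3.1 (submitters' processing notes), so that the deposited intensity is each spot's median signal, without background subtraction. The file headers name the software's single-colour protocol and the study's methods its protocol for both colours. The files were used as single-colour data, and how this choice of protocol bears on the background flags was not tested. A value matrix of log2 units was also deposited by the authors. For probes spotted once, each value differed from the log2 of the median signal, less the mean of its array, by at most 5e-09. This matrix served as an alternative. Probe positions are those of the oryCun2 assembly in the files, and symbols came from the files or RefSeq.

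Following the study's methods, log2 median signals were centred on the array median. Spots flagged as outliers were left out, spots and then probes of a gene were averaged, and limma 3.58.1 (R 4.3.3, package data.table, version 1.17.8) was fitted with a mean per group over all 28919 genes, and over 42089 probes for single probes. The fit was tested on simulated data. Calls were made at a Benjamini-Hochberg adjusted p under 0.05, and adjusted p-values given for a probe are those over all probes. An "at least" fold compares the mean of a brighter group with that of a group where the probe was on no array well above background. For each array of the latter, the probe's own level or the lowest level of any probe well above background was taken, whichever was higher. Some probes above that lowest level were not flagged, and a brighter group could hold arrays that were not. Such a fold is therefore an approximate bound. The number of arrays, 4 per group, limits the precision. Sequences were read and figures drawn with Python 3.11.15, pandas 2.3.3 and matplotlib 3.10.9.

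Replicate numbers name the same rabbits in every group. Deviations from the group means of samples of 1 rabbit correlated with a median of 0.229 over 60 pairs, and those of different rabbits with -0.0757 over 180 pairs. The fit carried no rabbit term, as in the study's methods, and a fit with rabbit as a block was run beside it.

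The members, lists and markers were chosen with earlier results of these data known. All members were named. From each list at most 3 genes per comparison were named, those with the largest called difference among genes detected in every sample of the group with the brighter signal, and 3 genes were named as most like each member called against mock-stimulated cells, of which 1 for MMP1 is not reported here. MMP2 probes, MMP10 in LPS-stimulated cells and marker genes were named for their bearing on a member. Alternatives were quantile normalization, processed signals scaled to percentile 75, normexp (offset 50) with quantile normalization, the deposited log2 matrix, dim probes left out, outlier spots kept, only the arrays compared, rabbit or slide as a block, single probes, and each rabbit left out.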

Additional observations from a re-analysis of the deposited data

Results flagged for a closer look

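In 3 of the 48 groups of 4 samples searched, 1 sample stood further from the others than Dixon's critical value allows, where chance gives about 1 in 20. For MMP1 this was the gap in mock-stimulated cells at T4 (82.9% of the range) and at T24 (84.6%), and for MMP14 it was rabbit 5 after LPS at T24 (92.6%), at 3.17 beside 4.07 to 4.14 in the other rabbits.

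The effect of LPS on MMP3 differed between T24 and T4 by 2.25 log2 units (limma adjusted p = 0.0284), as an average over 3 probes of which 2 were at or near background at T4. This call was lost in 5 of 15 alternatives, with processed signals and with any 1 rabbit left out, where the largest adjusted p was 0.181 by limma. The effect of PMA-Ionomycin on MMP14 differed by -1.51 (limma adjusted p = 0.0312), and this call was lost without rabbit 1, 2 or 4. The effect of LPS on MMP14 was negative in every rabbit at T4 and positive in every rabbit at T24, a change of 1.23 whose test did not pass (limma adjusted p = 0.211).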

How the results depend on the processing

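MMP9 and MMP12 with time, and MMP9 and MMP14 between both stimulations at T24, kept their direction and their call in all 14 alternatives. So did MMP14 after PMA-Ionomycin at T24, and TIMP3 after PMA-Ionomycin at T24 and against LPS at T4. MMP3 as a gene kept both in all 15 alternatives, after PMA-Ionomycin at both times and against LPS at T4. In 1 of these its first probe was left out. That probe, well above background on all 24 arrays, was not called at T4. After PMA-Ionomycin it differed there by 0.37 from mock-stimulated cells and by -0.017 from LPS (limma adjusted p = 0.566 and 0.981). At T24 it was called higher than in mock-stimulated cells (1.75, limma adjusted p = 0.000181). With dim probes left out, MMP1 in PMA-Ionomycin against LPS at T4 changed sign (-0.20 in place of 0.34, neither called), because only the middle probe is left. With only the arrays compared, 0 members were called after LPS at T24. For the change of the LPS effect with time, 1 member was called, 0 with processed signals, 2 with rabbit as a replicate block (MMP14 added) and 0 to 0 with a rabbit left out. For that of PMA-Ionomycin, 1 was called, and 2 with processed signals, with the deposited table, with rabbit as a block (MMP12 added, 1.70, adjusted p = 0.0201) and with slide as a block (MMP1 added, -0.57, adjusted p = 0.0371), and 0 to 3 with a rabbit left out. The rabbit block also called MMP14 with time (0.88, adjusted p = 0.0194). MMP2 after PMA-Ionomycin at T24 was called in 4 of 14 alternatives, from -0.27 with quantile normalization to -1.11 with processed signals. MMP1 in PMA-Ionomycin against LPS at T4 was called in 4 of 15 alternatives, with processed signals (1.16, adjusted p = 0.00877), with slide as a block (0.38, 0.0388), without rabbit 5 (0.53, 0.0193) and without its middle probe, chosen after seeing the data (0.61, 0.0176). All 18 called differences of members had the same sign within each of the 3 slides. The slides are parts of the arrays that gave these calls, so this is no independent support. Causes were not tested unless named. Probes not above background limit MMP1, MMP2 and the T4 levels of MMP3 and MMP12.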

Other observations

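Markers of further cell types were read as lists. Over all genes, 13.4% were called higher and 9.35% lower after PMA-Ionomycin at T4, and 22.1% and 11.5% at T24. After LPS these shares were 0.0553% and 0.968% at T4 and 0.643% and 0.581% at T24, and with time in mock-stimulated cells 7.42% and 5.14%. The lists are short, and their counts were not tested against these shares. Of 5 T cell markers measured among 8 listed, 1 was called higher after PMA-Ionomycin at each time, and 1 was lower in mock-stimulated cells at T24 than at T4. Of 3 B cell markers measured among 6, 2 were lower after PMA-Ionomycin at each time. The 1 NK cell marker measured among 5 was lower after PMA-Ionomycin at T4 and higher at T24. Of 3 endothelial markers among 6 and 2 erythrocyte markers among 5, 1 each was lower after PMA-Ionomycin at T24. After PMA-Ionomycin 2 monocyte and macrophage markers, 2 neutrophil markers and 2 platelet markers were lower at T4, and 1 platelet marker was higher and 1 lower at T24. In mock-stimulated cells 1 B cell marker was higher at T24 than at T4. After LPS, 2 monocyte and macrophage markers were lower at T4, 2 were higher and 1 lower at T24, and 2 neutrophil markers were lower at T24. No T cell, B cell, NK cell, platelet, fibroblast, endothelial or erythrocyte marker was called after LPS by limma, with 3 of these at an unadjusted p under 0.05 at T4 and 1 at T24.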
